A study of Mus musculus with 8 samples.

Results

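The enzymes that build triglyceride in the liver, with the lipins, were examined as a set of 9 genes: Gpam, Agpat2, Agpat3, Lpin1, Lpin2, Lpin3, Dgat1, Dgat2 and Mogat1. They were picked by symbol for their place in the pathway, by a choice made with earlier results of these data known, and all 9 were found among the 55487 genes of the table. Libraries were made from poly(A) RNA of snap-frozen liver of male C57Bl/6J mice aged about 10 weeks, an inbred strain for which no engineered allele is given. The sorbate group held 4 libraries from mice that had received 17 mg of potassium sorbate, a food preservative, by oral gavage, and the control group held 4 libraries from mice that had received water by the same route. Both groups were sampled after 4 h. Whether every library came from its own animal is not stated in the labels, so p-values cover the library-to-library spread, which may in part be technical.

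Triglyceride is assembled on a glycerol backbone in a fixed order. A glycerol-3-phosphate acyltransferase (GPAT) adds the first fatty acid, an acylglycerol-phosphate acyltransferase (AGPAT) adds the next and yields phosphatidate, a lipin removes the phosphate to give diacylglycerol, and a diacylglycerol acyltransferase (DGAT) adds the last fatty acid. Mogat1 offers a side entrance, making diacylglycerol from monoacylglycerol. The liver uses the product for storage in droplets and for secretion in very-low-density lipoprotein, and phosphatidate and diacylglycerol are also the branch points to the phospholipids.

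At 4 h, 1 of the 3 lipin transcripts, Lpin2, and 1 of the 2 DGAT transcripts, Dgat2, were higher with sorbate, while Agpat2 was lower; Lpin1, Lpin3 and Dgat1 did not pass the test. Lpin2 was 2.09-fold and Dgat2 1.45-fold the control level, and Agpat2 was 0.756-fold. Of the 9 genes, 8 passed the filter on low counts and entered the fit; 2 rose, 1 fell and 5 did not pass the threshold of an adjusted p of 0.05 (edgeR quasi-likelihood test, Benjamini-Hochberg adjustment over 13312 genes). Across all genes tested 12.4% passed, 6.14% higher and 6.3% lower with sorbate, and with 8 genes the members' count is a description. The median log2 fold change was 0.07 over the 8 tested genes and -0.02 over all genes tested. The 3 genes that passed were also those whose 4 sorbate and 4 control libraries did not overlap, which held for 17.7% of all genes tested, 9.42% higher and 8.32% lower with sorbate.

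Total counts ran from 15773932 to 25844731 per library. On the first principal component of log2 CPM (the normalised read count of edgeR, scaled by TMM factors), which held 53.6% of the variance, the sorbate libraries lay between 21.9 and 37.8, controls 1, 3 and 4 between -49.1 and -42.1, and control 2 at 15.4, apart from the other controls and near the sorbate group. The genes called over the whole table depended on that library: without control 2, 2053 were higher and 1915 lower, against 818 higher and 838 lower with it. Results below rest on all 8 libraries, with values without control 2 beside several of them.

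**Figure D1:**
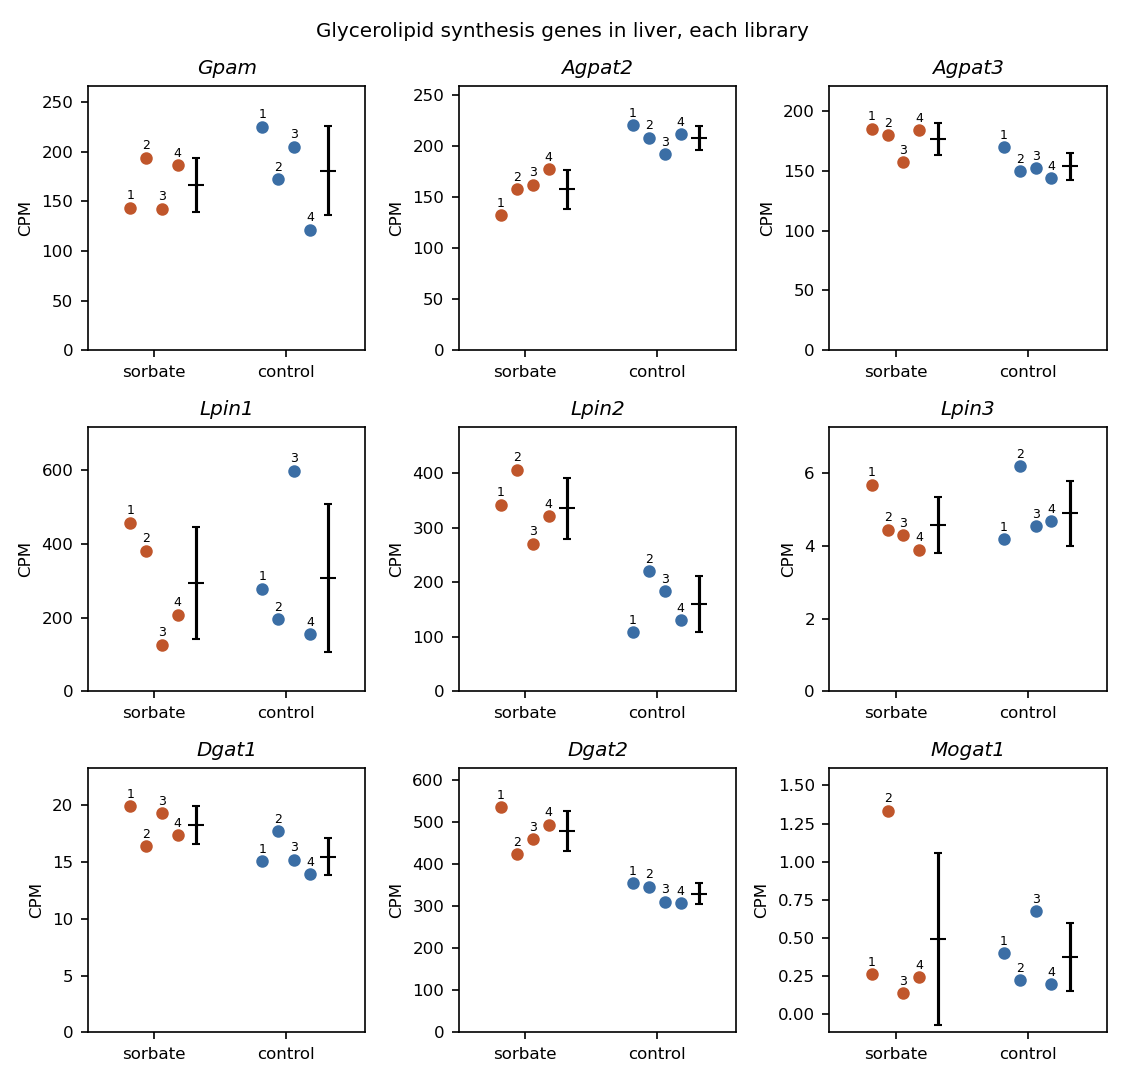
CPM of each of the 9 genes in every library, sorbate left and control right in each panel; points are libraries with the replicate number above them, and bars give the mean ± SD (n = 4 each). Every sorbate point lies above every control point for Lpin2 and Dgat2 and below every control point for Agpat2. Vertical scales differ between panels, and all include 0.

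At the first step, Gpam did not differ beyond its spread. Gpam, the mitochondrial GPAT1 and a textbook SREBP-1c target (ENSMUSG00000024978, GRCm38 chromosome 19, 55067268 to 55127238, minus strand), had 144, 194, 143 and 186 CPM in the sorbate libraries 1 to 4, against 225, 172, 205 and 121 CPM in the control libraries 1 to 4. The groups overlapped, the control values spanning the whole sorbate range. The log2 fold change was -0.12 (95% confidence interval -0.54 to 0.30, SE 0.19, adjusted p = 0.712 by the quasi-likelihood test), and its sign turned without control 1 (0.0025) and with scaling by library size alone (0.0043).

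A different picture came from Gpat4, a GPAT of the endoplasmic reticulum and no member of the set. It had 268, 245, 279.6 and 258 CPM in sorbate libraries, against 154, 129, 109 and 79.5 CPM in controls. Every sorbate library lay above every control, and the log2 fold change was 1.16 (SE 0.18, adjusted p = 0.00386 by the quasi-likelihood test). Per kilobase of exon, the scale on which genes can be set against each other, Gpat4 stood at 39.3 ± 2.23 CPM per kb in sorbate livers and 17.6 ± 4.68 CPM per kb in control livers (SD, n = 4 each), and Gpam at 24.997 ± 4.09 CPM per kb in sorbate livers and 27.2 ± 6.78 CPM per kb in control livers. Of the summed level of the 4 GPAT genes, Gpat4 made up 62.8%, 54.0%, 64.3% and 56.3% in sorbate libraries, against 39.8%, 41.8%, 33.7% and 37.1% in controls. Gpam made up 33.8%, 43.0%, 32.9% and 40.7% in sorbate libraries, against 58.4%, 56.0%, 63.4% and 56.9% in controls. The larger share was thus that of Gpat4 in all 4 sorbate libraries and that of Gpam in all 4 controls. These GPAT shares were computed after the values had been seen and carry no test; Gpat2 and Gpat3 held the small remainder.

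**Figure D2:**
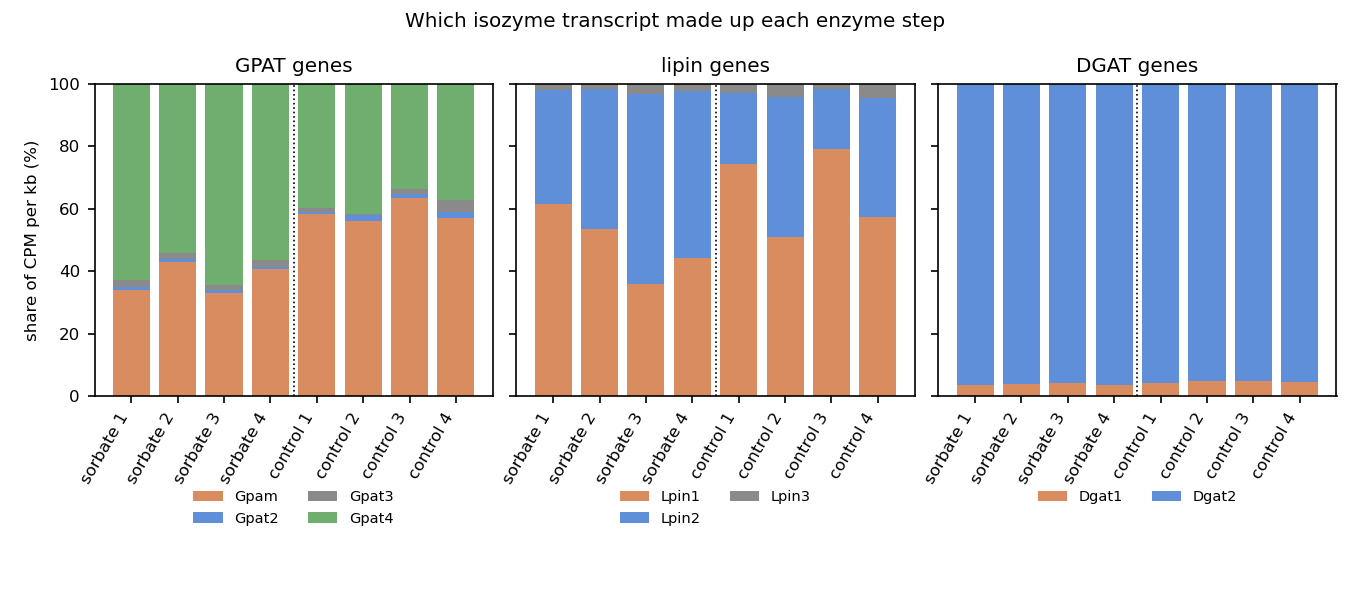
Share of the summed level (CPM per kb of exon, in percent) held by each gene of the GPAT, lipin and DGAT families in each library, sorbate left of the dotted line and control right of it. Gpat4 holds the larger share of the GPAT level in the 4 sorbate libraries and Gpam in the 4 controls, Lpin1 and Lpin2 vary widely within both groups, and Dgat2 holds at least 95.1% of the DGAT level in every library.

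At the next step, Agpat2 fell. Agpat2 (ENSMUSG00000026922, GRCm38 chromosome 2, 26593057 to 26604417, minus strand) makes phosphatidate in the endoplasmic reticulum, and its loss in people causes congenital generalised lipodystrophy. The 250 bases before its start are shown because Agpat2 is the one gene of the set that was lower with sorbate. They are the RefSeq window chr2:26604418-26604667 of GRCm38.p6, read on the minus strand and touching 0 annotated exons, and the capitals mark a pair of GC boxes (GGGCGG) that overlap by their last and first base, 42 to 37 and 37 to 32 bases before the start:
Agpat2 promoter: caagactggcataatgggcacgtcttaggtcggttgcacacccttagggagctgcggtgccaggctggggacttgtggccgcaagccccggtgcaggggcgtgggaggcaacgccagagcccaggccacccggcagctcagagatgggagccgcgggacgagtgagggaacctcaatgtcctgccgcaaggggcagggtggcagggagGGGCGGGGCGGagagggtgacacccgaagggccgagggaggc
A GC box stands in 32.7% of the 32851 RefSeq windows of this length, on either strand, so its presence is ordinary.

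Agpat2 had 132, 158, 162 and 177 CPM in sorbate libraries 1 to 4, against 220.4, 208, 192 and 212 CPM in controls 1 to 4. The highest sorbate library lay below the lowest control, and control 2 was not set apart from the other controls. The mean was 157 ± 18.7 CPM in sorbate livers and 208 ± 11.8 CPM in controls (SD, n = 4 each), a log2 fold change of -0.40 (SE 0.11, 95% confidence interval -0.66 to -0.15, adjusted p = 0.0451 by the quasi-likelihood test). This call was just inside the threshold: it held on leaving out control 2 and was lost on leaving out each of the other 7 libraries, with log2 fold changes from -0.46 to -0.33 and adjusted p from 0.0296 to 0.130 over all 8. With scaling by library size alone the log2 fold change was -0.28 (adjusted p = 0.140). With 1 surrogate variable, a factor for unlabelled variation estimated from the data, it was -0.41 (adjusted p = 0.116). That variable was not independent of the groups. It was 0.062 to 0.283 in sorbate libraries, -0.512 to -0.362 in controls 1, 3 and 4, and 0.479 in control 2. Fitting it can thus change the estimate of the sorbate difference, its SE or both, here and for every gene below. For Agpat2 the estimate stayed near that of the main fit, and the SE was 0.134 against 0.115. Without strand in the counting, which is not stated, reads could be shared with Egfl7 on the opposite strand over 64 bases of exon, where 15 of 2220 stretches of 50 bases were common to both genes. Here, as for each gene below, fewer cells that express a transcript and less RNA per cell cannot be told apart.

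Agpat3 (ENSMUSG00000001211, GRCm38 chromosome 10, 78269178 to 78352489, minus strand), an isozyme that places polyunsaturated fatty acids, stood on the other side without passing. It had 185, 179.7, 157 and 184 CPM in sorbate libraries, against 169.9, 149.7, 152 and 144 CPM in controls. Sorbate 1, 2 and 4 exceeded all controls, and sorbate 3 lay among them. The log2 fold change was 0.20 (SE 0.10, 95% confidence interval -0.03 to 0.43, adjusted p = 0.237 by the quasi-likelihood test). Of the summed level per kilobase of the 5 AGPAT genes, Agpat2 held 68.4% to 75.0% in sorbate libraries and 79.7% to 81.1% in controls, and Agpat3 held 19.9% to 26.2% in sorbate libraries and 15.0% to 17.2% in controls. Agpat2 thus remained the main AGPAT transcript in every library; these shares too were computed after the values had been seen, with no test.

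At the phosphatidate phosphatase step, Lpin2 rose and Lpin1 varied too much between libraries to show a difference. Lipins act as enzymes on the endoplasmic reticulum and, for lipin 1, also as nuclear coregulators; lipin 1 works with PGC-1α and PPARα on fatty acid oxidation genes in mouse liver and is known for strong daily and fasting-driven swings. Lpin2 (ENSMUSG00000024052, GRCm38 chromosome 17, 71182560 to 71249817, plus strand) encodes lipin 2, abundant in liver, and Lpin1 (ENSMUSG00000020593, GRCm38 chromosome 12, 16535669 to 16610966, minus strand) encodes lipin 1. A window of 250 bases before a RefSeq start is shown for each because 1 of these sister genes passed the test and the other did not. For Lpin2, RefSeq lists 3 such windows, all inside the GENCODE gene span; the most upstream, chr17:71183282-71183531, plus strand, is printed, and it is the one of the 3 that holds the E-box. For Lpin1 the one listed is chr12:16610967-16611216, minus strand. Both are on GRCm38.p6 and touch 0 annotated exons. Capitals mark, for Lpin2, a GC box (GGGCGG) 24 to 19 bases and an E-box (CACGTG) 9 to 4 bases before the start and, for Lpin1, a nuclear receptor half-site (AGGTCA) 74 to 69 bases before the start:
Lpin2 promoter: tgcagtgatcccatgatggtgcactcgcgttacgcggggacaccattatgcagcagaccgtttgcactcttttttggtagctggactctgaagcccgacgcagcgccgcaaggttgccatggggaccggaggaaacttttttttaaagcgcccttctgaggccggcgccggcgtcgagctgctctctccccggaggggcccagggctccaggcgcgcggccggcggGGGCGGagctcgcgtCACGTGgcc
Lpin1 promoter: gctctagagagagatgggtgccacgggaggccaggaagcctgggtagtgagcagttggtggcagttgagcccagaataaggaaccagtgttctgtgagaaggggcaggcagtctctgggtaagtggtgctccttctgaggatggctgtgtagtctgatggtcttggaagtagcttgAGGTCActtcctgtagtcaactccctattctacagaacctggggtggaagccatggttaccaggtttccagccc
In all, 7 motifs were searched on both strands in the 11 windows that RefSeq lists for 7 of the 9 genes (Dgat1 and Dgat2 had no entry). CACGTG, found in 6.02% of all 32851 windows, occurred once, before Lpin2. AGGTCA, in 14% of all windows, occurred before Lpin1 and before Gpam. GGGCGG stood before Agpat2, Gpam, Lpin2 and Lpin3, and CCAAT, in 33.8% of all windows, before Gpam and before the most downstream of the 3 Lpin2 starts. The D-box TTATGNAA (3.07% of all windows), the sterol element TCACNCCAC (1.05%) and the cyclic AMP element TGACGTCA (1.55%) were in none of the 11 windows. These letter matches describe the windows and say nothing of binding.

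Lpin2 had 343, 407, 271 and 322 CPM in sorbate libraries 1 to 4, against 108, 221, 184 and 130.5 CPM in controls 1 to 4. The lowest sorbate library was above the highest control, which was control 2. The mean was 336 ± 56.2 CPM in sorbate livers and 161 ± 50.9 CPM in controls (SD, n = 4 each), a log2 fold change of 1.06 (SE 0.22, 95% confidence interval 0.58 to 1.54, adjusted p = 0.0131 by the quasi-likelihood test). The call held on leaving out each library in turn, with log2 fold changes from 0.91 without control 1 to 1.26 without control 2 and adjusted p up to 0.0440. With 1 surrogate variable the log2 fold change was 0.84 and the adjusted p 0.0517.

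Lpin1 had 458, 382, 127 and 209 CPM in sorbate libraries, against 279, 197, 599.6 and 155 CPM in controls. The lowest of all 8 libraries was in the sorbate group and the highest in the control group, and the coefficient of variation was 51.9% with sorbate and 65.4% in controls, while for Lpin2 it was 16.7% with sorbate and 31.7% in controls. The log2 fold change was -0.07 (SE 0.46, 95% confidence interval -1.08 to 0.95, adjusted p = 0.941 by the quasi-likelihood test). The sign turned without sorbate 3 (0.19), sorbate 4 (0.07) or control 3 (0.48), and with library size scaling (0.06) or 1 surrogate variable (0.32).

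Lpin3 (ENSMUSG00000027412, GRCm38 chromosome 2, 160880670 to 160906002, plus strand), the least abundant lipin, had 5.68, 4.45, 4.30 and 3.89 CPM in sorbate libraries, against 4.18, 6.20, 4.54 and 4.67 CPM in controls. The groups overlapped, sorbate 4 lying below every control and control 2 above every sorbate library, with a log2 fold change of -0.09 (SE 0.19, 95% confidence interval -0.51 to 0.33, adjusted p = 0.789 by the quasi-likelihood test); the sign turned without control 2 (0.05). Of the summed lipin level per kilobase, Lpin2 made up 36.4%, 44.9%, 60.8% and 53.7% in sorbate libraries, against 22.7%, 45.0%, 19.2% and 38.1% in controls. Lpin1 made up 61.6%, 53.4%, 36.0% and 44.1% in sorbate libraries, against 74.3%, 50.8%, 79.2% and 57.4% in controls. Lpin2 was the larger of the pair in sorbate 3 and sorbate 4 and Lpin1 in the other 6 libraries, and both shares overlapped between the groups. This ranking depends on the length used: with the longest transcript in place of all exons, Lpin2 was also the larger in sorbate 2 (50.8% against 48.3% for Lpin1) and in control 2 (51.3% against 46.3%). The remaining 1.63% to 3.19% in sorbate libraries and 1.57% to 4.52% in controls was Lpin3. No stretch of 50 bases was shared between the transcripts of any members, nor between a lipin and any other gene.

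At the last step, Dgat2 rose. Dgat2 (ENSMUSG00000030747, GRCm38 chromosome 7, 99153658 to 99182719, minus strand) is tied to newly made fatty acids and droplet growth, while Dgat1 (ENSMUSG00000022555, GRCm38 chromosome 15, 76502015 to 76511953, minus strand), an unrelated protein with the same activity, re-esterifies fatty acids taken up from outside. Dgat2 had 535, 424, 459 and 493 CPM in sorbate libraries 1 to 4, against 354, 346, 311 and 306 CPM in controls 1 to 4. The lowest sorbate library was above the highest control, and control 2 was not set apart from the other controls. The mean was 478 ± 47.4 CPM in sorbate livers and 329 ± 24.4 CPM in controls (SD, n = 4 each), a log2 fold change of 0.54 (SE 0.12, 95% confidence interval 0.27 to 0.80, adjusted p = 0.0185 by the quasi-likelihood test). The fold change moved little on leaving out single libraries, from 0.48 to 0.59, but the call was lost without sorbate 1 (adjusted p = 0.0598), sorbate 4 (0.057), control 3 (0.0691) or control 4 (0.052), and with 1 surrogate variable (log2 fold change 0.49, adjusted p = 0.0754).

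Dgat1 had 19.9, 16.4, 19.3 and 17.3 CPM in sorbate libraries, against 15.0, 17.7, 15.2 and 13.9 CPM in controls. Control 2 lay inside the sorbate range and the other controls below it. The log2 fold change was 0.24 (SE 0.12, 95% confidence interval -0.02 to 0.49, adjusted p = 0.193 by the quasi-likelihood test). With single libraries left out it ran from 0.19 without control 4 to 0.32 without control 2. None of these fits passed, the one without control 2 coming closest (adjusted p = 0.0511 by the same test). Dgat2 held 95.9% to 96.6% of the summed DGAT level per kilobase in sorbate libraries and 95.1% to 95.9% in controls.

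**Figure D3:**
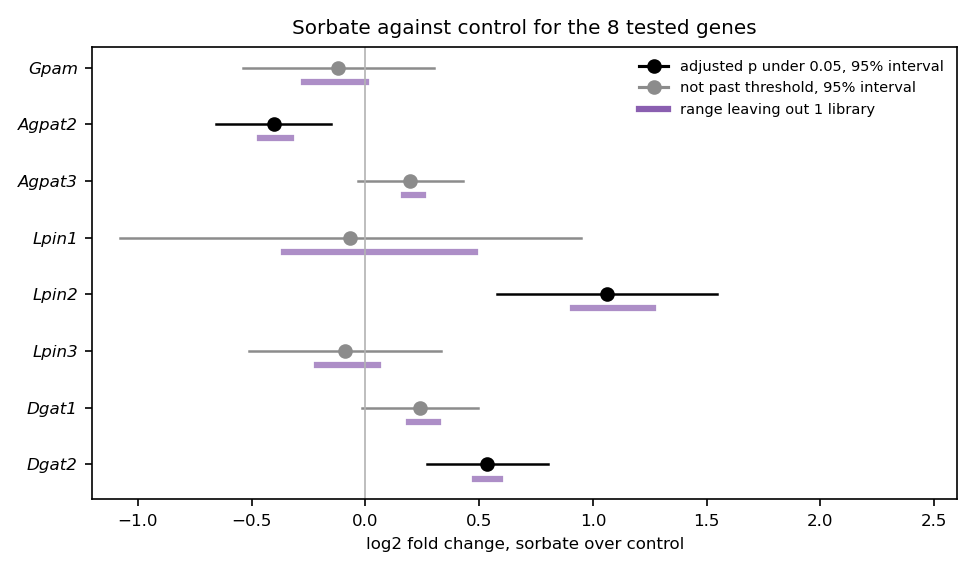
Log2 fold change, sorbate over control, of the 8 tested genes with the 95% confidence interval from the quasi-likelihood fit; black marks genes past the adjusted threshold of 0.05 and grey the others. The purple bar under each point spans the estimates from the 8 fits that each leave out 1 library. The intervals of Lpin2 (0.58 to 1.54), Dgat2 (0.27 to 0.80) and Agpat2 (-0.66 to -0.15) exclude 0, and that of Lpin1 is the widest (-1.08 to 0.95).

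Mogat1 (ENSMUSG00000012187, GRCm38 chromosome 1, 78510991 to 78538173, plus strand), the monoacylglycerol acyltransferase that mouse liver expresses at a low level unless it is fatty, was too low to be tested. Its raw counts were 7, 30, 3 and 4 in sorbate libraries, against 8, 4, 14 and 4 in controls, or 44 and 30 in all. Sorbate 2 held most of the sorbate counts, at 1.33 CPM, where the other sorbate libraries had 0.137 to 0.262 CPM and the controls 0.197 to 0.677 CPM. Fitted without the filter, its log2 fold change was 0.41 (SE 0.67, adjusted p = 0.760 by the quasi-likelihood test), and no difference could be seen with so few reads. It shares 200 bases of exon with BC035947 on the opposite strand, a gene with 0 counts in all libraries.

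Set against each other per kilobase of exon, the members fell in much the same order in both groups, except that Lpin2 moved up. This order used all exons as the length. Lpin2 has 12233 bases of exon but 5640 in its longest transcript, against 6664 and 6172 for Gpam and 7790 and 5980 for Agpat3. The place of Lpin2 beside them, in either group, therefore depends on the length used. In sorbate livers Dgat2 led with 155 ± 15.4 CPM per kb, followed by Agpat2 (73.9 ± 8.76), Lpin1 (30.4 ± 15.8), Lpin2 (27.4 ± 4.59), Gpam (24.997 ± 4.09) and Agpat3 (22.6 ± 1.69), and then by Dgat1 (5.97 ± 0.544), Lpin3 (1.24 ± 0.208) and Mogat1 (0.317 ± 0.361; SD, n = 4). On this length the ranges of Lpin1, Lpin2, Gpam and Agpat3 overlapped, so their order is not resolved. Dgat2 and Agpat2 stood apart above them, and Dgat1 and the others below. In control livers Dgat2 (107 ± 7.91 CPM per kb) and Agpat2 (97.7 ± 5.54) overlapped, then came Lpin1 (31.8 ± 20.8), Gpam (27.2 ± 6.78), Agpat3 (19.7 ± 1.44) and Lpin2 (13.1 ± 4.16), whose range lay below those of Gpam and Agpat3 and overlapped that of Lpin1, and again Dgat1 (5.06 ± 0.524), Lpin3 (1.33 ± 0.241) and Mogat1 (0.240 ± 0.142; SD, n = 4). The gap between Dgat2 and Agpat2 was thus clear in sorbate livers, at 137 to 173 against 62.2 to 83.3 CPM per kb, and not in controls, at 99.4 to 115 against 90.3 to 103.5 CPM per kb; this difference in gaps was not tested.

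The other glycerolipid acylation and backbone genes, listed together with some phosphatases and droplet proteins, moved in part. Of 23 tested genes of this list, 4 rose, 2 fell and 17 did not pass. Their median log2 fold change was 0.06. The shares among all genes tested were 6.14% higher and 6.3% lower. Without control 2, 4 of the list were higher and 3 lower. That fit had 2053 higher and 1915 lower among all 13559 genes it tested. Acsl1, the main liver enzyme that activates long-chain fatty acids to their CoA esters, had 1299, 1089, 999.7 and 1436 CPM in sorbate libraries, against 367, 631, 334 and 228 CPM in controls, and its log2 fold change was 1.63 (SE 0.28, adjusted p = 0.00586 by the quasi-likelihood test). Acsl3, a droplet-associated enzyme of the same family, went the other way, with 7.85, 7.47, 10.98 and 9.01 CPM in sorbate libraries, against 16.2, 19.1, 18.9 and 18.9 CPM in controls (log2 fold change -1.05, SE 0.14, adjusted p = 0.00207 by the quasi-likelihood test). Neither pair of groups overlapped, and for Acsl1 the highest control was control 2.

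Gpd1l, a relative of the glycerol-3-phosphate dehydrogenase that makes the backbone, had 35.2, 35.3, 38.4 and 40.9 CPM in sorbate libraries, against 9.81, 22.3, 11.7 and 11.7 CPM in controls (log2 fold change 1.44, adjusted p = 0.00409 by the quasi-likelihood test). Gpd1, that dehydrogenase itself, did not pass (log2 fold change 0.0098). It had 309, 362, 252 and 321 CPM in sorbate libraries, against 332, 303, 348 and 252 CPM in controls. Gpd2 and Gk, of the same list, did not pass either (log2 fold changes 0.26 and 0.18). Gpd1, Gpd2 and Gk were named after their values were seen. Fitm2, an endoplasmic reticulum protein needed for droplets to bud, had 75.6, 71.0, 58.6 and 76.2 CPM in sorbate libraries, against 36.0, 34.9, 36.6 and 26.6 CPM in controls (log2 fold change 1.07, adjusted p = 0.00157). Plpp1, a phosphatase of the plasma membrane that dephosphorylates phosphatidate and related lipids outside the lipin family, fell, with 4.78, 5.56, 6.31 and 5.42 CPM in sorbate libraries, against 12.7, 7.54, 13.2 and 14.0 CPM in controls (log2 fold change -1.10, adjusted p = 0.00711). Gpat4, described above, was the fourth that rose. The calls of all 6 held on leaving out each library in turn and with 1 surrogate variable. For Gpd1l and Plpp1, control 2 was the control nearest to the sorbate libraries.

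The phospholipid branch draws on the same phosphatidate and diacylglycerol. Of its 29 tested genes, 6 rose, 2 fell and 21 did not pass, with a median log2 fold change of -0.09. Across all genes tested, 6.14% rose and 6.3% fell. Chka, the choline kinase that starts phosphatidylcholine synthesis, fell furthest, with 17.0, 17.4, 13.2 and 11.6 CPM in sorbate libraries, against 100.4, 40.0, 63.1 and 62.8 CPM in controls (log2 fold change -2.17, SE 0.25, adjusted p = 0.00121 by the quasi-likelihood test). Of the later genes of that route, 2 rose: Pcyt1a, its rate-limiting enzyme, had a log2 fold change of 0.39 (adjusted p = 0.0301) and Chpt1, which joins phosphocholine to diacylglycerol, one of 0.69 (adjusted p = 0.0202). Cept1, which catalyses the same last step as Chpt1, had a log2 fold change of -0.26 that did not pass (adjusted p = 0.115), although its groups did not overlap; it was named after its values were seen. Dgkd, a kinase that returns diacylglycerol to phosphatidate and so opposes the lipins, had 21.6, 26.1, 25.1 and 26.4 CPM in sorbate libraries, against 17.7, 15.6, 17.8 and 15.2 CPM in controls (log2 fold change 0.58, adjusted p = 0.00899). Lpcat3, which remodels phosphatidylcholine with polyunsaturated fatty acids, had a log2 fold change of 0.59 (adjusted p = 0.0158), and Ptdss2, which makes phosphatidylserine, one of 0.56 (adjusted p = 0.0177). The other gene that fell, the ethanolamine kinase Etnk1 (log2 fold change -0.60, adjusted p = 0.0306), and the other that rose, the diacylglycerol kinase Dgka (0.62, adjusted p = 0.0480), were named after their values were seen.

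The calls of Chka and Dgkd held on leaving out each library in turn and with 1 surrogate variable. Those of Dgka, Pcyt1a, Etnk1, Chpt1 and Ptdss2 were lost on leaving out 7, 6, 6, 5 and 4 of the 8 libraries one at a time, in each case control 3 among them, and that of Lpcat3 without control 3. The list's count of higher genes ranged over these fits from 1 without control 3 to 8 without control 2, and was also under 4 without sorbate 1 (2), sorbate 3 (3), sorbate 4 (3) or control 4 (2); the count of lower genes was 5 without control 2 and 1 without sorbate 1, sorbate 3, control 1, control 3 or control 4. With 1 surrogate variable, 1 was higher and 2 were lower. The count over all genes tested swung in the same fits. It was 332 higher without control 3, 2053 without control 2 and 323 with the surrogate variable.

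Among 17 tested partners of the lipins and transcription factors of the pathway, 5 rose and 12 did not pass. Their median log2 fold change was 0.30. Of all genes tested, 6.14% rose and 6.3% fell. Ppara, the fatty-acid receptor with which lipin 1 acts, had 128, 162, 112 and 181 CPM in sorbate libraries, against 73.7, 84.4, 78.4 and 64.6 CPM in controls (log2 fold change 0.95, SE 0.16, adjusted p = 0.00569 by the quasi-likelihood test). Ppargc1b, a coactivator of SREBP-1c and of oxidative genes, had 6.62, 7.87, 5.86 and 7.42 CPM in sorbate libraries, against 0.996, 3.97, 1.98 and 1.53 CPM in controls (log2 fold change 1.72, SE 0.35, adjusted p = 0.0115). Srebf1, which encodes SREBP-1c, had 212, 234.5, 220.3 and 248.6 CPM in sorbate libraries, against 119, 167, 77.6 and 84.5 CPM in controls (log2 fold change 1.03, SE 0.22, adjusted p = 0.0141). These 3 sets of libraries did not overlap, and in each the highest control was control 2, as for Lpin2. Tfeb, a regulator of lysosomal genes, had a log2 fold change of 0.70 (adjusted p = 0.0243), and Cebpa, a liver and fat cell transcription factor whose groups overlapped, one of 0.66 (adjusted p = 0.0430).

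The calls of Ppara, Ppargc1b and Srebf1 held on leaving out each library in turn and with 1 surrogate variable. That of Tfeb was lost without sorbate 3, sorbate 4, control 1 or control 3, that of Cebpa without any single library other than control 2, and both were lost with the surrogate variable. The list's count of higher genes was 3 without sorbate 3, sorbate 4 or control 3. Without control 2 that count was 7, with 1 lower, where over all genes tested 2053 were higher and 1915 lower. Ctdnep1 and Cnep1r1, the phosphatase pair that activates lipins, had log2 fold changes of -0.20 (adjusted p = 0.418) and -0.08 (adjusted p = 0.717). Ppargc1a, which encodes PGC-1α, had one of 0.12 (adjusted p = 0.795 by the quasi-likelihood test), and its groups overlapped. It was named after its values were seen.

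**Figure D4:**
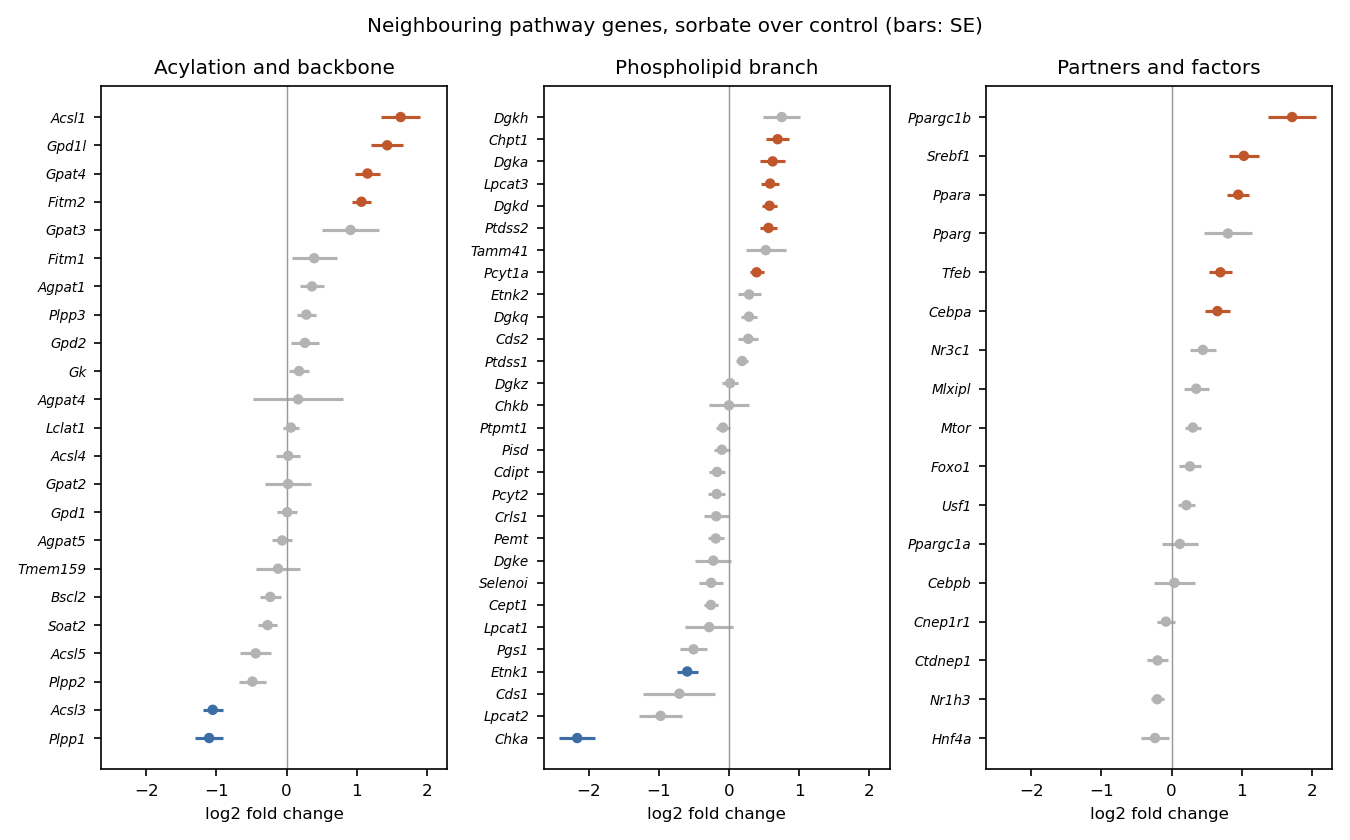
Log2 fold changes, sorbate over control, of the tested genes of the 3 neighbouring lists, 1 point a gene with its SE as a bar; orange marks genes that rose, blue genes that fell and grey genes that did not pass the adjusted threshold of 0.05. The points of every list lie on both sides of 0, with Chka (-2.17) the lowest and Ppargc1b (1.72) the highest.

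Over the 8 libraries, the tested gene whose log2 CPM ran closest to Lpin2 was Hadhb, a subunit of the mitochondrial trifunctional protein of fatty acid oxidation (Pearson r = 0.988), and Ppargc1b was the third closest (0.979). For Dgat2 it was Smarcd2, a chromatin remodelling subunit (0.992), and for Agpat2 it was Mical2 (0.976). Gpam ran closest to Elovl6 (0.951), which lengthens newly made fatty acids, Lpin1 to Pars2 (0.952), Dgat1 to Idh3g (0.980), Agpat3 to Nub1 (0.957) and Lpin3 to Dtd2 (0.965). Each closest gene was the best of the 13312 tested genes once predicted genes, clone names and pseudogenes were left out. The libraries share a treatment difference, so these values describe the pattern and carry no test. Among the members, Lpin2 and Dgat2 had a coefficient of 0.772 over all 8 libraries and -0.142 once each group's mean was removed, while Lpin1 and Lpin2 had 0.176 and 0.392.

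Markers of other cells differed between the groups in part. Over all genes tested, 6.14% were higher and 6.3% lower with sorbate. The Kupffer cell markers Vsig4, Timd4 and Cd5l, 3 of 7 tested, were lower with sorbate, and the list summed to 135 to 268 CPM in sorbate libraries and 189 to 456 CPM in controls, with control 2 the lowest control. The one tested neutrophil marker of 7, S100a9, was also lower; that list summed to 0.365 to 1.07 CPM in sorbate libraries and 0.838 to 21.9 CPM in controls, again with control 2 the lowest. One of 5 endothelial markers, Clec4g, was lower, with sums of 87.6 to 109 CPM in sorbate libraries and 84.3 to 181 CPM in controls. The hepatocyte list summed to 76600 to 100000 CPM in sorbate libraries and 67000 to 84000 CPM in controls, and 0 of its 7 markers passed. Most of the sum was Alb, at 51250 to 73350 CPM in sorbate libraries and 44960 to 58000 CPM in controls. Single markers went both ways. Cps1 had 4260 to 5779 CPM with sorbate and 2151 to 4485 CPM in controls, and Tat 1043 to 1911 CPM with sorbate and 1633 to 2616 CPM in controls. Cps1 and Tat were named after their values were seen. The stellate list summed to 106 to 167 CPM in sorbate libraries and 107 to 148 CPM in controls. The adipocyte list, of interest because fat cells are rich in the same enzymes, summed to 7.89 to 17.6 CPM in sorbate libraries and 6.14 to 15.1 CPM in controls, with Adipoq at most 0.0457 CPM in sorbate livers and 0.338 CPM in controls and Lep at 0 in 7 of 8 libraries. The intestine list summed to 420 to 1580 CPM in sorbate libraries and 332 to 498 CPM in controls, mostly through Apoa4, which liver also makes, and its member Fabp2 was higher with sorbate; the muscle markers Ckm and Tnnt3 were at 0 in all libraries. The part of these markers in the differences of Agpat2, Lpin2 and Dgat2 was not tested.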

How the data were processed

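Per the labels, TruSeq libraries from poly(A) liver RNA were sequenced as single reads. The deposited table holds raw counts per gene, whole numbers that the authors had not normalized. The submitters' processing notes name FastQC, HISAT2 2.1.0, Subread, edgeR and build GRCm38; settings for counting are not given there. Another 4 per-sample columns fit no listed sample and stayed out of every step.

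Of 55487 genes, 13312 passed filterByExpr (count minimum 10). Sorbate was compared with control by edgeR's two-sided quasi-likelihood test (edgeR 4.0.16, R 4.3.3, TMM scaling, Benjamini-Hochberg adjustment over all tested genes, threshold 0.05). CPM were computed from the TMM-scaled library sizes; likeness used log2 CPM with a prior count of 2. Levels per kb used the union of GENCODE vM21 exons, and shared stretches of 50 bases its transcripts; promoter sequences come from RefSeq. Alternatives were library size scaling, DESeq2 1.42.0, other filters, limma-voom quality weights (limma 3.58.1), 1 surrogate variable (sva 3.50.0), and leaving out each library. Replicate numbers follow accession order and pair nothing. Replicates within a group differed by far more than sampling noise. The code was tested on simulated counts. The members and lists were chosen with earlier results of these data known. By rule, all members are named, up to 6 called genes per list by lowest p, and for each tested member the most correlated gene. Predicted genes, clone names and pseudogenes were left out of that last choice. Other genes were named outside this rule. Among them are Ctdnep1, Cnep1r1 and the genes marked as named after their values were seen. The likeness of Ppargc1b to Lpin2 was also given outside it.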

Additional observations from a re-analysis of the deposited data

Results flagged for a closer look

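Mogat1 in sorbate 2 stood far from the other 3 sorbate libraries, at 1.33 CPM (30 counts) against 0.137 to 0.262 CPM (3 to 7 counts); the gap was 0.896 of the group's range, above the limit set for 4 samples. In all, 28 groups of libraries were examined in this way, and chance alone marks about 1 in 20 groups. Mogat1 did not enter the main test, so no call rests on this library.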

How the results depend on the processing

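Over the whole table, 818 genes were higher and 838 lower. These counts became 1300 and 550 with library size scaling alone, 1968 and 1944 with limma-voom quality weights, in which control 2 had a weight of 0.309, and 323 and 301 with 1 surrogate variable; leaving out single libraries gave 332 to 2053 higher and 357 to 1915 lower. Under library size scaling the median over all genes was 0.11 on the log2 scale, against -0.02, and the share of calls that were higher to 70.3%, against 49.4%.

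Of the triglyceride genes, 2 were higher and 1 lower. With 1 surrogate variable these became 0 and 0, although 2 and 1 kept an unadjusted p under 0.05: Lpin2 had 0.84, Dgat2 0.49 and Agpat2 -0.41. As stated above, that variable ran partly along with the groups. The lower count was also 0 with library size scaling (Agpat2 -0.28) and with no filter on low counts (Agpat2 -0.40, adjusted p = 0.0810), again with 1 at an unadjusted p under 0.05, and it was 1 by DESeq2. Leaving out single libraries gave 1 to 2 higher and 0 to 1 lower, and ranges of -0.46 to -0.33 for Agpat2, 0.48 to 0.59 for Dgat2, 0.91 to 1.26 for Lpin2, -0.27 to 0.0025 for Gpam, -0.36 to 0.48 for Lpin1 and -0.21 to 0.053 for Lpin3. Signs turned for 3 genes that were never called: Gpam (0.0043) and Lpin1 (0.062) with library size scaling, Lpin1 (0.32) with the surrogate variable, and Lpin3 with library size scaling (0.028) and quality weights (0.026). The cause was not tested. The direction of Lpin2, Dgat2 and Agpat2 was the same in every fit listed here.

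With the longest transcript as the length in place of all exons, Lpin2 held 54.8% of the lipin level in sorbate livers and 36.5% in controls, and Lpin1 43.9% in sorbate livers and 61.7% in controls, where all exons gave Lpin2 49.0% in sorbate livers and 31.3% in controls and Lpin1 48.8% in sorbate livers and 65.5% in controls. Lpin3 held 1.23% of the lipin level in sorbate livers and 1.89% in controls, where all exons gave 2.24% in sorbate livers and 3.30% in controls. Dgat1 held 4.38% of the DGAT level in sorbate livers and 5.33% in controls, where all exons gave 3.72% in sorbate livers and 4.52% in controls. Dgat2 held 95.6% in sorbate livers and 94.7% in controls, where all exons gave 96.3% in sorbate livers and 95.5% in controls. No paired analysis was possible because the replicate numbers follow accession order. With 4 libraries a group, intervals such as that of Lpin1 (-1.08 to 0.95) are wide, and Mogat1 lay below the depth that allows a test.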

Other observations

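Sorbate 2, the library with the highest Mogat1 level, also had 8.40 CPM of Cidec, a droplet protein, where the other sorbate libraries had 1.46 to 1.95 CPM, and 1439 CPM of Apoa4, an apolipoprotein of intestine and fatty liver, where they had 333 to 444 CPM. Both genes were chosen after their values were seen, and the comparison has no test.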
